A study of Mus musculus with 2 samples.

Results

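The 80 genes described here encode the nuclear-encoded subunits of the 5 complexes of oxidative phosphorylation. They were chosen by symbol from the 27998 named genes of the matrices, as genes whose names carry the usual stems of complex I (Nduf), complex II (Sdh), complex III (Uqcr and Cyc1), complex IV (Cox4 to Cox8) and complex V (Atp5), and which had at least 50 UMIs over the annotated cells. A UMI (unique molecular identifier) stands for 1 captured RNA molecule. Of the 85 symbols that fit the pattern, 80 passed the minimum, of which 36 belonged to complex I, 4 to complex II, 9 to complex III, 14 to complex IV and 17 to complex V. The members with the fewest UMIs were Cox6b2 with 179, Cox6a2 with 236 and Atp5s with 455, and the 5 symbols below the minimum were Ndufa4l2 with 3, Cox4i2 with 1, Cox8c with 1, and Cox8b and Cox7b2 with 0. The symbols gather a few genes whose products are not classical subunits, such as Cox7a2l, a factor of respiratory supercomplexes, and Atp5s and Atp5sl. Ndufa4, first assigned to complex I and later found in complex IV, was kept with complex I by its name.

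The cells came from jejunal crypts of 2 male mice, 12 months old, of the strain given as C57BL6/2J, in which miR-375 had been removed from the whole body with CRISPR/Cas9 (375KO), in a line backcrossed to B6 albino mice. Each mouse gave 1 droplet library, called replicate 1 and replicate 2. Wild-type cells were not analysed here, so no value below measures an effect of miR-375, and both mice share the deletion in every cell. UMIs give each gene's share of a cell's RNA, so a lower share of subunit RNA and more RNA of other genes cannot be told apart. The matrices hold whole-number UMI counts, and whether the authors' correction for ambient RNA had been applied to them is not given in the sources used here. The comparisons are between the authors' cell types, which were themselves defined from the expression of the same cells, and their p values rest on 2 mice.

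Oxidative phosphorylation is carried out in the inner mitochondrial membrane. Complexes I and II pass electrons from NADH and succinate to ubiquinone, complex III passes them on to cytochrome c, and complex IV to oxygen, while complexes I, III and IV pump protons that complex V uses to make ATP. Most subunits are encoded in the nucleus, and a small core is encoded by mitochondrial DNA. In the small intestine, absorptive enterocytes arise from stem cells through cycling transit-amplifying (TA) cells, and are known for their many mitochondria and high demand for ATP.

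After the authors' filters, replicate 1 held 2082 annotated cells with 44017234 UMIs and replicate 2 held 1193 cells with 22163354. The median cell had 16475 and 15232 UMIs, and 10.2% and 5.55% of its UMIs were from mitochondrial genes. No cell barcode was shared. Of 54 marker genes of the cell types, 48 were highest in their own type in both libraries. These included all 6 of enterocytes, Paneth cells, goblet cells, enteroendocrine cells (EEC) and tuft cells. For stem cells it was 5 of 6, for TA cells 4 of 6 and for secretory progenitors 3 of 6. Ascl2, listed for stem cells, was highest in tuft cells in both libraries. Pcna and Mcm5, listed for TA cells, were highest in other types. The sums per cell type held between 18 cells (intraepithelial lymphocytes, IEL, of replicate 2) and 931 cells (enterocytes of replicate 1).

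Short stretches of promoter sequence are shown first, for the few subunit genes that hold the letters of a motif linked to respiratory genes, which the choice by symbol did not use. Of the 80 members, 67 had an entry in the RefSeq promoter table of build GRCm38.p6, and the 250 bases before the start were searched on both strands. The letters GCGCATGC, the core of the motif of NRF1, a transcription factor known for its many targets among respiratory chain genes, were present for 8 of 67 members, or 11.9%, and for 2.56% of all 27025 genes with an entry. The members' windows were also richer in G and C, with a median of 56.4% against 52.0% for all genes, and the part of this in the motif counts was not tested. The 30 bases around each match are given here on the strand of the gene, with the match in capitals. A match on the opposite strand appears as its reverse complement, and a run of 10 capitals is 2 overlapping matches, 1 on each strand.
Atp5l (chr9:44920963-44920992, minus strand): aaccaataacGCATGCGCatttcccccact
Cox6a1 (chr5:115349101-115349130, minus strand): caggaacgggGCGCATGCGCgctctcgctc
Atp5g2 (chr15:102671070-102671099, minus strand): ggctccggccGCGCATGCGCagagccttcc
Ndufa6 (chr15:82354356-82354385, minus strand): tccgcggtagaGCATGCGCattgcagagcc
Sdhb (chr4:140961206-140961235, plus strand): aagcccagtggGCATGCGCcctacgggccg
Ndufa11 (chr17:56717692-56717721, plus strand): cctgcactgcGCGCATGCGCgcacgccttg
Atp5k (chr5:108434430-108434459, minus strand): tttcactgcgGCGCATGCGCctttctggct
Ndufa8 (chr2:36049339-36049368, minus strand): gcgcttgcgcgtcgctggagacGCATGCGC
These 8 genes belong to complexes I, II, IV and V, and a match describes letters only. The 4 other motifs were searched in the same way. CCGGAAGT, the core of the ETS factor GABPA, was found for 4.48% of the members and 3.23% of all genes, GGGGCGGGG of the SP and KLF factors for 14.9% and 11.8%, and AAGATGGCG of YY1 for 2.99% and 0.710%. TCAAGGTCA, the motif of the estrogen-related receptor ERR alpha, was found for 1 member, Atp5g3, in these 30 bases, and for 0.422% of all genes.
Atp5g3 (chr2:73911360-73911389, minus strand): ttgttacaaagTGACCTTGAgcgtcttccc
None of the 5 motifs was found for 45 of the 67 members, among them Cox7a1, Cox7a2 and Cox7a2l.

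The members' share of all UMIs was highest in enterocytes and lowest in Paneth cells in both mice. Enterocytes devoted 6.56% and 8.33% of their UMIs to the 80 genes (mean 7.45% ± 1.24, SD, n = 2), TA cells 5.99% and 6.97%, and stem cells 5.14% and 6.17%. Tuft cells stood at 4.81% and 5.92%, goblet progenitors at 4.96% and 5.53%, secretory progenitors at 4.62% and 5.12%, EEC at 3.84% and 3.84%, and goblet cells at 3.21% and 4.15%. IEL held 2.97% and 3.26%. Replicate 2 was above replicate 1 in 9 of the 10 types, and neighbours in this order, such as stem cells, tuft cells and goblet progenitors, overlapped between the mice. The exact 95% binomial intervals, which cover counting error only, were narrow by comparison, for example 6.55% to 6.58% for enterocytes of replicate 1.

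In Paneth cells, which secrete defensins and lysozyme, the members held 0.306% and 0.363% of UMIs. There the 10 most abundant genes took 82.6% and 81.9% of all UMIs, against 13% and 10.1% in stem cells. With the 100 most abundant genes of any type left out of the total, the Paneth share was 3.36% and 4.90%, still the lowest of the epithelial types in both mice. A share therefore moves with the other genes of the cell, and the fits below scale each sum by factors (TMM) that limit the weight of such genes.

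**Figure D1:**
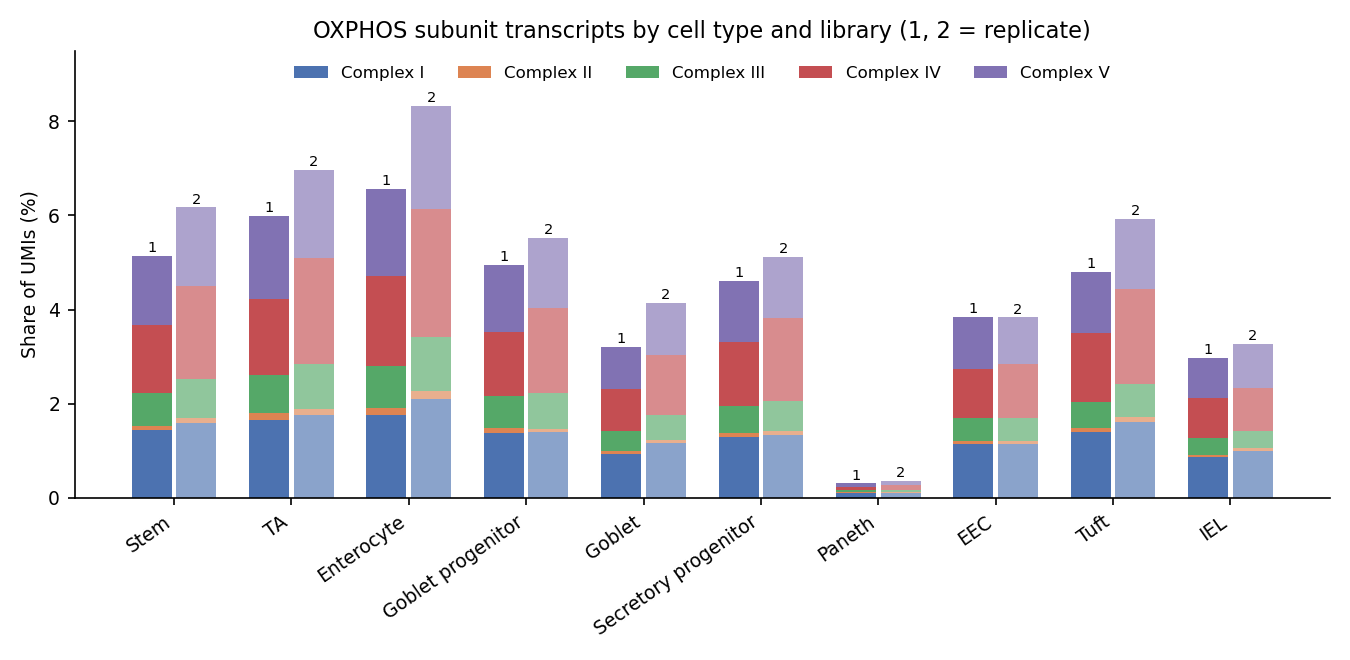
Share of all UMIs (%, vertical axis) held by the members in each annotated cell type, stacked by complex, with 1 bar per library (1 and 2 above the bars are the replicates, and replicate 2 is drawn paler). Enterocytes have the tallest bars in both libraries (6.56% and 8.33%) and Paneth cells the shortest (0.306% and 0.363%), and complexes I, IV and V make up most of each bar.

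Complex IV held the largest part of the enterocyte share with 1.89% and 2.72% of UMIs, followed by complex V with 1.86% and 2.20% and complex I with 1.75% and 2.11%. Complex III held 0.896% and 1.15%, and the 4 genes of complex II held 0.161% and 0.155%. Per gene, 51 of 80 members were highest in enterocytes in both libraries, and 78 were lowest in Paneth cells in both, among the 9 epithelial types. Exceptions were Cox6c, Cox7a2l, Ndufa7 and Ndufs4, highest in tuft cells in both libraries, and Atp5g1, Uqcr10, Ndufa2 and Atp5sl, highest in TA cells in both. These ranks use shares of UMIs without TMM scaling, and the same ranks were not counted over all genes. With library totals only, 87.2% of all genes tested were called lower in Paneth cells than in stem cells, so a lowest rank there is not particular to the members.

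Between stem cells and TA cells 1 subunit passed the test. Of the 79 members that could be tested (Cox6a2 had too few UMIs), 1 rose in TA cells and 0 fell, with 2.93% of all 11013 genes tested higher and 1.9% lower. The median log2 fold change was 0.06, beside 0.01 for all genes. The member that rose was Cox7a1, a form of complex IV subunit 7a known from heart and skeletal muscle, from 9.53 and 20.6 CPM (UMIs of the gene per 1000000 UMIs of the sum) in stem cells to 32.9 and 59.8 in TA cells. Its log2 fold change was 1.5 ± 0.32 (SE; adjusted p = 0.00479 by the quasi-likelihood test of edgeR with Benjamini-Hochberg adjustment, as for each adjusted p below). At an unadjusted p below 0.05, 3 members were higher and 2 lower, and the Wald test of DESeq2 called 4 higher and 0 lower (2.09% and 1.86% of all genes). The Cox7a1 call was lost without cells of over 10% mitochondrial reads (edgeR adjusted p = 0.106). It was also lost in a model without the mouse as a term (edgeR adjusted p = 0.731). The stem cells of the 2 mice differed in their own markers. The 6 stem markers summed to 1190 CPM in stem cells of replicate 1 and 619 in those of replicate 2. Olfm4 alone was at 313 and 14.3. The part of this difference in the comparisons with stem cells was not tested.

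Enterocytes had more of nearly every subunit transcript than stem cells, in all 5 complexes. Of 79 members, 69 rose and 1 fell, where 27.8% of all genes were higher and 23.5% lower. The median log2 fold change of the members was 0.66, beside 0.06 for all genes, and it was 0.72 within replicate 1 and 0.59 within replicate 2. Both mice gave the same sign for 78 of 79 members. By complex, 31 of 36 members of complex I rose (median 0.57), 4 of 4 of complex II (0.81), 9 of 9 of complex III (0.72), 11 of 13 of complex IV (0.68) and 14 of 17 of complex V (0.64).

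In complex I, which takes electrons from NADH, the accessory subunits Ndufb10 and Ndufa6 rose most. Ndufb10 had 441 and 271 CPM in stem cells and 745 and 498 in enterocytes, a log2 fold change of 1.10 ± 0.16 (edgeR adjusted p = 1.06e-06). Ndufa6 had 392 and 673 in stem cells and 639 and 1204 in enterocytes (1.05 ± 0.14, edgeR adjusted p = 4.08e-07). For both genes each mouse was higher in its enterocytes, but the 2 mice lay apart, with Ndufb10 higher in replicate 1 and Ndufa6 in replicate 2. The values of the catalytic core were smaller. Ndufs1, which carries iron-sulfur clusters, rose by a log2 fold change of 0.61 ± 0.18 and Ndufv1, which binds NADH, by 0.48 ± 0.17. Members of complex I that did not pass included Ndufs8, Ndufc2, Ndufa10 and Ndufa7, with log2 fold changes of 0.14 to 0.30.

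Complex II, succinate dehydrogenase, is also an enzyme of the TCA cycle. Its iron-sulfur subunit Sdhb had 360.5 and 396 CPM in stem cells and 643 and 636 in enterocytes, a log2 fold change of 1.03 ± 0.23 (edgeR adjusted p = 0.00111). The flavoprotein subunit Sdha rose by 0.70 ± 0.15, and the membrane anchors Sdhc and Sdhd by 0.74 ± 0.19 and 0.87 ± 0.22. In complex III, the Rieske iron-sulfur protein Uqcrfs1 rose by 1.0 ± 0.17, from 364 and 359 to 624 and 565 CPM, the core protein Uqcrc1 by 0.87 ± 0.20 and cytochrome c1 (Cyc1) by 0.72 ± 0.19. The second core protein, Uqcrc2, rose by 0.41 ± 0.17. Complexes II and III had no member that missed the threshold in this comparison.

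The widest spread was in complex IV, cytochrome c oxidase. Cox7a1 had 9.53 and 20.6 CPM in stem cells and 294 and 576 in enterocytes, which amounts to a 34.7-fold rise (log2 fold change 5.12 ± 0.30, edgeR adjusted p = 3.68e-12, and 5.23 and 4.93 within the mice). Cox7a2, the form of subunit 7a found in most tissues, went from 937 and 1373 to 1579.5 and 2396 (1.05 ± 0.15, edgeR adjusted p = 6.11e-07). Cox7a2l, related in sequence, had 703 and 768 in stem cells and 449 and 599 in enterocytes (−0.23 ± 0.16, edgeR adjusted p = 0.231). The enterocyte and stem cell values did not overlap for Cox7a1 and Cox7a2. Cox7a1 is at chr7:30184144-30186078 on the plus strand (GENCODE M21, GRCm38, the build the authors call mm10).

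Cox7a1 supplied 0.578% and 0.952% of the UMIs of the 3 Cox7a genes in stem cells, 1.75% and 2.38% in TA cells, and 12.7% and 16.1% in enterocytes. UMIs are counted at the 3′ end, so these shares were not divided by transcript length. In the other epithelial types the Cox7a1 share was 0.257% to 3.31%, from 1 to 165 UMIs per sum. Cox7a1 was also above stem cells in goblet cells (22.5 and 39.8 CPM, log2 fold change 1.44 ± 0.34, edgeR adjusted p = 0.00172). The summed level of the 6 enterocyte markers (Alpi, Apoa1, Apoa4, Fabp1, Fabp2 and Sis) was 2522 and 2384 CPM in goblet cells and 1853 and 869 in TA cells. It was 623 and 477 in stem cells and 45789 and 27562 in enterocytes. Between goblet and TA cells the order differed, since Cox7a1 was higher in TA cells (32.9 and 59.8 CPM) and the marker sum was higher in goblet cells. The part of enterocyte transcripts in the goblet and TA values of Cox7a1 was not tested.

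The authors split the enterocytes into 5 clusters, and Cox7a1 differed among these more than the other members of its family. It was lowest in cluster 2, with 96.0 and 158 CPM, where the fat-absorption gene Apoa4 was at 25.1 and 11.8. It stood at 227 and 437 in cluster 6 and at 203 and 610 in cluster 9. It was highest in clusters 3, with 416 and 1012, and 1, with 393 and 1045, where Apoa4 reached 2044 and 557, and 7011 and 5387. Across the same 5 clusters Cox7a2 ranged only from 1390.5 to 1687 in replicate 1 and from 2185 to 2591 in replicate 2. Cox7a2l had 623 and 731 in cluster 2 and 309 and 310 in cluster 1. The clusters were made from the same transcripts, so these levels are a description with no test.

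**Figure D2:**
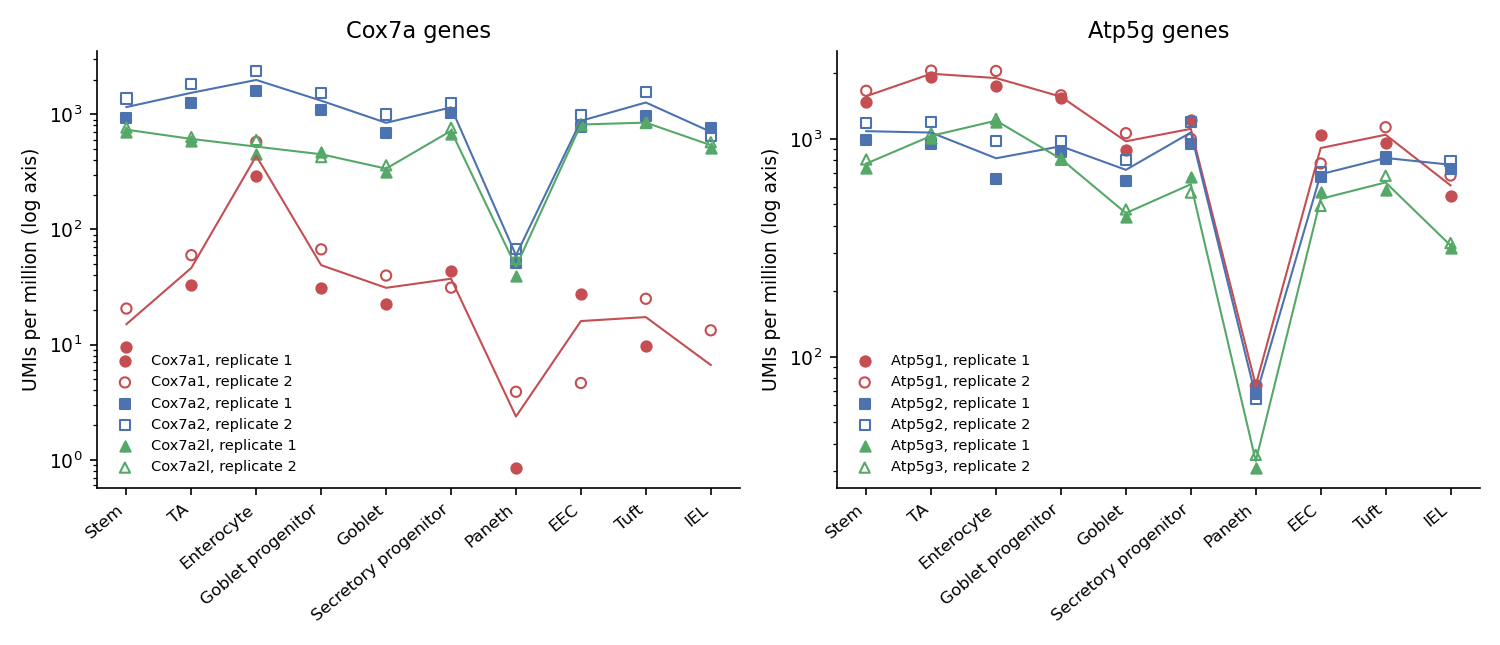
Level (CPM, log axis) of the Cox7a genes on the left and the Atp5g genes on the right in each annotated cell type, with filled symbols for replicate 1, open symbols for replicate 2 and a line through the mean. Cox7a1 reaches 294 and 576 in enterocytes and stays at or below 67.2 elsewhere, and Atp5g3 lies above Atp5g2 only in enterocytes in both libraries. Cox7a1 had 0 UMIs in IEL of replicate 1, which has no point.

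Cox6b2, a form of subunit 6b known from testis, was the 1 member that fell in enterocytes. It had 6.73 and 13.7 CPM in stem cells, 2.61 and 9.27 in TA cells and 0.929 and 1.5 in enterocytes, a log2 fold change of −2.61 ± 0.55 between enterocytes and stem cells (edgeR adjusted p = 0.000199). These levels rest on 12 and 22 UMIs in stem cells, 22 and 53 in TA cells and 18 and 8 in enterocytes. With cells thinned to 5000 UMIs the fall was not called. Of 77 members tested there, 53 were higher and 0 lower in enterocytes than in stem cells (23.6% and 22.2% of all genes). Its common counterpart Cox6b1 had 1121 and 1803 in stem cells and 1477 and 2406 in enterocytes (0.68 ± 0.15). Cox6b1 supplied at least 99.2% of the Cox6b UMIs in every epithelial type of both mice. The other subunits of complex IV rose too, with log2 fold changes of 0.97 ± 0.16 for Cox5a, 0.75 ± 0.15 for Cox6a1, 0.70 ± 0.15 for Cox7b, 0.70 ± 0.18 for Cox6c, 0.68 ± 0.15 for Cox5b, 0.67 ± 0.16 for Cox8a, 0.62 ± 0.18 for Cox4i1 and 0.53 ± 0.17 for Cox7c.

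Complex V, the ATP synthase, showed a split among the 3 genes for subunit c, Atp5g1, Atp5g2 and Atp5g3, which encode the same mature protein. Atp5g3 had 735 and 804 CPM in stem cells and 1189 and 1235 in enterocytes (log2 fold change 0.93 ± 0.15, edgeR adjusted p = 7.21e-06). Atp5g1 had 1477 and 1661 and 1753 and 2048 (0.55 ± 0.16, edgeR adjusted p = 0.00559). Atp5g2 had 983 and 1186 and 654 and 975 (−0.16 ± 0.14, edgeR adjusted p = 0.369). Atp5g3 supplied 23.0% and 22.0% of the UMIs of the 3 genes in stem cells and 33.1% and 29.0% in enterocytes, and Atp5g2 went from 30.8% and 32.5% to 18.2% and 22.9%. Among enterocyte clusters, Atp5g2 was at 943 and 1258 in cluster 2 and at 368 and 494 in cluster 1. Of the last 300 bases of the Atp5g2 transcript, 52.0% of the 32-base stretches also occur in annotated transcripts of other genes, mainly Gm10175, and such reads could be lost or split. The core subunits Atp5a1 and Atp5b and the rotor subunit Atp5c1 rose by log2 fold changes of 0.74 ± 0.17, 0.60 ± 0.17 and 0.68 ± 0.17.

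Against TA cells, from which they arise, enterocytes also had more of most subunit transcripts. Of 79 members, 68 rose and 1 fell (29.1% and 22.6% of all genes), and the median log2 fold change was 0.59, beside 0.06 for all genes. Cox7a1 rose most (3.62 ± 0.24, edgeR adjusted p = 1.86e-11), followed by Ndufa6 (1.14 ± 0.14), Sdhb (0.89 ± 0.23) and Ndufa1 (0.86 ± 0.16), and Cox6b2 fell (−1.60 ± 0.49, edgeR adjusted p = 0.00649, with −0.70 and −1.98 within the mice). The fall of Cox6b2 was not called without cells of over 10% mitochondrial reads (edgeR adjusted p = 0.0827) or without the mouse as a term (edgeR adjusted p = 0.12). Atp5g2 had 945 and 1191 CPM in TA cells, and its log2 fold change was −0.01 ± 0.14. Enterocytes are in both comparisons, and so the 2 counts are not independent.

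The scaling mattered for these counts. With sums scaled by library totals only, the median of all genes moved from 0.06 to −0.22 between enterocytes and stem cells, and the members' median was 0.39 with 35 higher and 3 lower (19.8% and 30.7% of all genes). Against TA cells, the median of all genes was then −0.35, that of the members 0.19, and 3 members were higher and 2 lower (16.3% and 37.5% of all genes). Ndufs6, Ndufa7 and Ndufa2, called higher against TA cells, changed sign under library totals. Without the mouse as a term, 14 members were higher and 1 lower against stem cells, where 16.7% of all genes were higher and 13.3% lower, so the members' share of rises was near that of all genes. Against TA cells 6 members were higher and 0 lower in that fit, below the 14.6% and 11.3% of all genes. Cox7a1 passed in both comparisons under both settings.

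**Figure D3:**
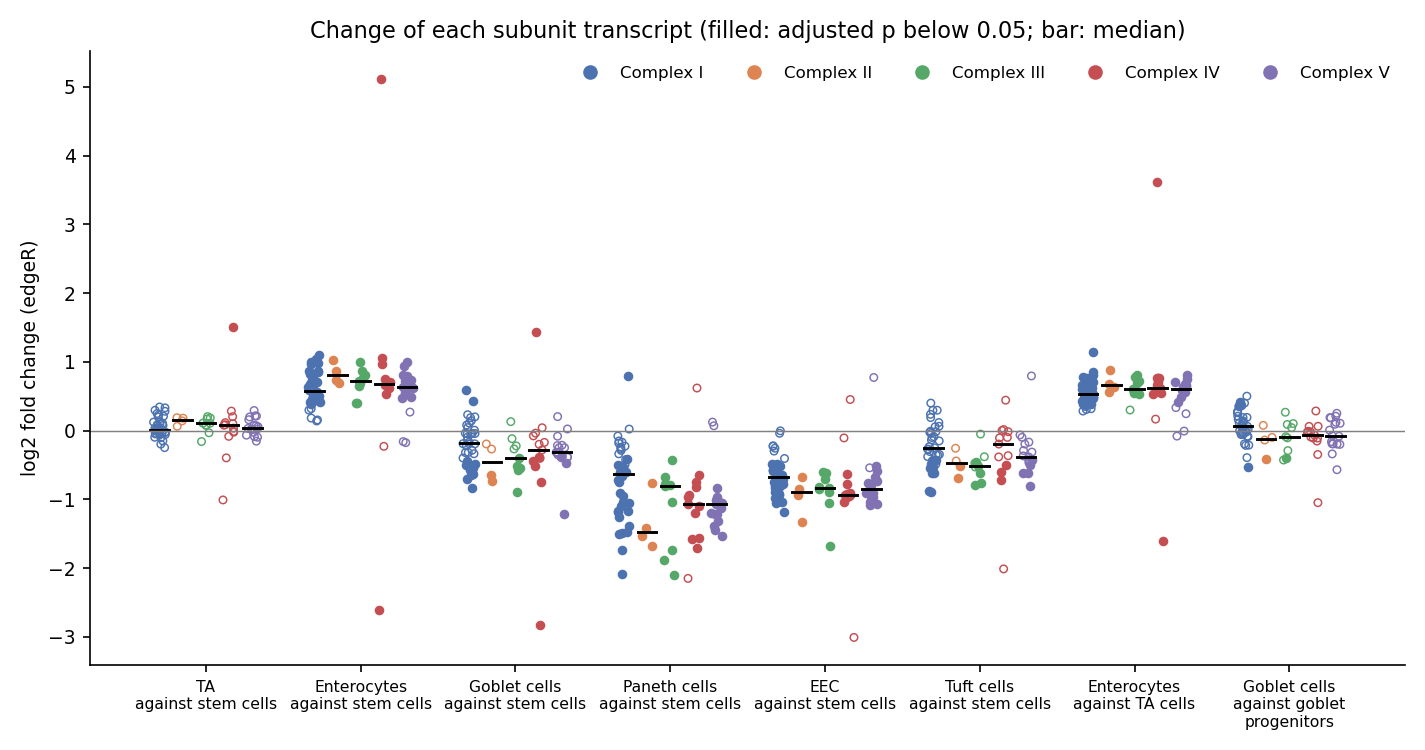
Log2 fold change (vertical axis, edgeR) of each tested member in the 8 comparisons, coloured by complex, with filled points for adjusted p below 0.05 and a black bar at the median of each complex. The points of enterocytes lie above 0 with Cox7a1 at 5.12 and Cox6b2 at −2.61, those of Paneth cells and EEC mostly lie below 0, and those of TA cells centre on 0.

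The secretory types lay on the other side of stem cells. These comparisons use the same stem cell sums, and so they are not independent of each other. Goblet cells, which make mucus, had 3 members higher and 24 lower than stem cells (19.6% and 19.2% of all genes), with a median log2 fold change of −0.27, beside −0.06 for all genes. The members higher in goblet cells were Cox7a1, Ndufv3 and Ndufa1. Ndufv3, an accessory subunit of complex I, had 226 and 388 CPM in stem cells and 259.6 and 459 in goblet cells (0.60 ± 0.15, edgeR adjusted p = 0.00153), and Ndufa1 gave 0.43 ± 0.16 (edgeR adjusted p = 0.0357). Among the largest falls were those of Cox6b2 (−2.83 ± 0.71, with 0 and 6 UMIs in goblet cells), Atp5sl (−1.22 ± 0.32) and Cyc1 (−0.90 ± 0.19). Cyc1 was at 529 and 554 CPM in stem cells and at 209 and 240.1 in goblet cells, and the groups did not overlap. Under library totals only, 1 member was higher and 61 were lower (12.4% and 31.8% of all genes), with the median of all genes at −0.43. Without the mouse term 0 were higher and 2 lower, below the 11.5% and 9.04% of all genes. At an unadjusted p below 0.05 that edgeR fit had 0 higher and 8 lower.

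Between goblet cells and goblet progenitors, few subunits differed. Here 3 members rose and 3 fell (16% and 13.2% of all genes), with a median log2 fold change of −0.01, beside 0.01 for all genes. The 3 that rose were of complex I, namely Ndufs4 (0.42 ± 0.16), Ndufv3 (0.37 ± 0.14) and Ndufa13 (0.36 ± 0.14), with edgeR adjusted p between 0.0431 and 0.0495. Ndufa5 (−0.53 ± 0.16, edgeR adjusted p = 0.0144), Sdha (−0.41 ± 0.16) and Uqcr10 (−0.40 ± 0.15) fell. The 3 rises were lost with the size factors of DESeq2, with mitochondrially encoded genes left out and without cells of over 10% mitochondrial reads (0 higher and 3 lower in each). They were also lost with cells thinned to 5000 UMIs (0 and 5) and with no filter on low counts (0 and 1). In these fits 8.74% to 15.5% of all genes were higher and 9.27% to 14.1% lower. The log2 fold changes of the 3 rises changed sign when only library totals were used. There 0 members were higher and 43 lower (6.24% and 33.4% of all genes), with a median of −0.49 over all genes. Without the mouse term edgeR called 0 members (4.5% of all genes higher and 4.98% lower), and 0 also at an unadjusted p below 0.05. Ndufa5 had 339.5 and 322 CPM in the progenitors and 136 and 196 in goblet cells.

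Paneth cells had 1 member higher and 62 lower than stem cells (16.7% and 14.9% of all genes), and the members' median log2 fold change was −0.99, beside −0.05 for all genes. The medians varied by complex, and this variation was not tested. Complex II had a median of −1.47 with 4 of 4 members lower, complex V −1.07 with 15 of 17, complex IV −1.06 with 11 of 13, complex III −0.80 with 9 of 9, and complex I −0.63 with 23 of 36. Core subunits were among the largest falls. Uqcrc2 had an unscaled 475 and 314 CPM in stem cells and 10.2 and 9.40 in Paneth cells. After scaling, its log2 fold change was −2.10 ± 0.22 (edgeR adjusted p = 4.31e-09), that of Cyc1 −1.89 ± 0.22 and that of Uqcrc1 −1.73 ± 0.24.

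Ndufa1, a small membrane subunit of complex I encoded on chromosome X, was called higher in Paneth cells, with a log2 fold change of 0.79 ± 0.17 (edgeR adjusted p = 0.000508, and 0.99 and 0.61 within the mice). Its unscaled level was 169 and 372 CPM in stem cells and 39.8 and 57.1 in Paneth cells, so the rise is relative to the other genes after scaling. With library totals only, its log2 fold change was −2.41, the median of all genes −3.21, and 0 members were higher and 79 lower (1.76% and 87.2% of all genes). Without the mouse term, 0 members were higher and 31 lower (11.5% and 8.3% of all genes). With cells thinned to 5000 UMIs, 0 were higher and 60 lower (4.9% and 8.8% of all genes), with the median of all genes at −0.68. In the Paneth sums the 6 enterocyte markers together came to 0.284 and 0 CPM.

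EEC, the hormone-producing cells, had 0 members higher and 67 lower than stem cells (14.3% and 11.6% of all genes), with a median log2 fold change of −0.78, beside 0.04 for all genes. All 4 members of complex II and all 9 of complex III were lower, as were 29 of 36 of complex I, 10 of 13 of complex IV and 15 of 17 of complex V. Cyc1 fell most, from 529 and 554 to 274 and 116 CPM (−1.68 ± 0.21, edgeR adjusted p = 9.83e-07). Its fall was −1.20 within replicate 1 and −2.51 within replicate 2. The 20 EEC of replicate 2 also held transcripts of the 6 IEL markers at a summed 1230.2 CPM, against 3.22 in EEC of replicate 1 and 9347 in IEL of replicate 2, and their part in the EEC values was not tested. The members' median log2 fold change was −0.68 within replicate 1 and −0.92 within replicate 2. Sdhd (−1.33 ± 0.27), Ndufa10 (−1.18 ± 0.22) and Atp5k (−1.09 ± 0.19) followed. Cox7a2l, at 809 and 822 CPM, gave −0.11 ± 0.16. Under library totals only, 0 members were higher and 39 lower (19.5% and 6.15% of all genes) with the median of all genes at 0.31, and without the mouse term 0 were higher and 9 lower (9.03% and 3.94%). At an unadjusted p below 0.05, 0 members were higher and 69 lower by edgeR, and the Wald test of DESeq2 called 0 and 67 (13.8% and 9.72% of all genes).

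Tuft cells, which sense chemicals of the gut lumen, had 0 members higher and 24 lower than stem cells (11.2% and 10% of all genes), with a median log2 fold change of −0.36, beside −0.02 for all genes. Among the largest falls were those of Ndufa10 (−0.88 ± 0.21, edgeR adjusted p = 0.0023), Atp5g1 (−0.81 ± 0.17) and Cyc1 (−0.79 ± 0.20). Cyc1 stood at 529 and 554 CPM in stem cells and 375 and 357 in tuft cells, and the groups did not overlap. Cox8a, the member with the most UMIs over both libraries, had 2104 and 2775 in stem cells and 2503 and 3172 in tuft cells, with a log2 fold change of 0.00 ± 0.16. Under library totals only, 3 members were higher and 5 lower (14.7% and 5.92% of all genes), with the median of all genes at 0.17. Without the mouse term 0 were called, where 6.09% of all genes were higher and 3.27% lower (0 members higher and 10 lower at an unadjusted p below 0.05). At an unadjusted p below 0.05 the edgeR fit with the mouse term had 2 members higher and 39 lower. The Wald test of DESeq2 called 2 and 26 (11.4% and 8.45% of all genes).

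Cox6a2, the striated-muscle form of subunit 6a, was at or near 0 in the epithelium and present in IEL. In IEL it had 427 and 266 CPM, from 112 and 60 UMIs, and it supplied 54.1% and 26.0% of the UMIs of Cox6a1 and Cox6a2. In the 9 epithelial types it ranged from 0 to 1.96 CPM, with at most 38 UMIs in a sum, while Cox6a1 had 37.0 to 2346. The authors divided IEL into clusters 11 and 14. In cluster 14 the level of Cox6a2 was 1117 and 390.0, and in the 28 cells of cluster 11 of replicate 1 it was 0. IEL were in no fit, so no test is given.

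Lists of other mitochondrial and energy genes were counted in the same fits, with TMM scaling only, first for enterocytes against stem cells, where 27.8% of all genes were higher and 23.5% lower. Of the 13 mitochondrially encoded subunits, 6 rose and 0 fell in enterocytes (median log2 fold change 0.52), led by mt-Co1 (0.80 ± 0.26) and mt-Nd3 (0.71 ± 0.15). Of 17 TCA cycle genes tested, 9 rose and 1 fell (median 0.60), with 2-oxoglutarate dehydrogenase (Ogdh) at 2.11 ± 0.17 and malate dehydrogenase 2 (Mdh2) at 2.00 ± 0.18. Of 15 carriers and inner membrane transport genes, 12 rose and 1 fell (0.80), Slc25a20, the carnitine carrier, at 2.16 ± 0.26. Of 19 glycolysis genes, 14 rose and 1 fell (1.30), with phosphofructokinase (Pfkp) at 3.61 ± 0.24 and hexokinase 2 (Hk2) at −3.04 ± 0.36.

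Among the genes that build or regulate the chain, genes were called in both directions in enterocytes against stem cells, and the shares that rose were below the 27.8% of all genes. Of 44 assembly factors, 9 rose and 4 fell (median 0.16), with Coa7 at 1.39 ± 0.26 and Nubpl at −1.09 ± 0.28. Of 76 genes listed as mitochondrial ribosomal proteins, 10 rose and 9 fell (−0.12), with Mrps36 at 0.84 ± 0.16 and Mrps27 at −1.25 ± 0.28. The list was taken as given, and the role of each gene in it, Mrps36 included, was not tested. Of 17 regulators of mitochondrial content, 3 rose and 6 fell (−0.30). Among these, the coactivator gene Ppargc1a rose by a log2 fold change of 3.86 ± 0.33 (edgeR adjusted p = 3.6e-11) and Ppara by 2.04 ± 0.33, while Esrrg fell (−3.22 ± 0.72) and Pprc1 fell (−2.24 ± 0.31).

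In EEC and Paneth cells, each of the mitochondrial lists had more genes lower than higher against stem cells, where 11.6% and 14.9% of all genes were lower. Of the 76 mitochondrial ribosomal proteins 46 fell in EEC and 47 in Paneth cells, with 0 higher in each (medians −0.72 and −0.72). Of the 17 TCA cycle genes 9 and 10 fell and 0 rose (−0.76 and −0.75). Of the 13 mitochondrially encoded subunits 6 and 8 fell (−0.92 and −1.75). The exceptions included Cox17, a copper chaperone for complex IV, which rose in Paneth cells (1.15 ± 0.20, edgeR adjusted p = 4.64e-05), and Slc25a4, an ADP/ATP carrier, which rose in EEC (3.45 ± 0.38, edgeR adjusted p = 1.92e-06). The 76 mitochondrial ribosomal proteins had 3 higher and 32 lower in goblet cells (19.6% and 19.2% of all genes). In tuft cells they had 0 higher and 21 lower (11.2% and 10% of all genes). In TA cells against stem cells at most 1 gene in any list rose and at most 1 fell (2.93% and 1.9% of all genes).

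Some single subunits differed between the 2 mice, and the share of members that did was below that of all genes. Over the 9 epithelial types, 5 members had at least a 2-fold ratio of CPM in the same direction in at least 5 types, where 10.6% of 2644 genes at 50 or more CPM did, against 6.58% of the 76 members at that level. All 5 were higher in replicate 2. Atp5k, a small membrane subunit of ATP synthase, was 3.62-fold higher by the median over the types, Ndufa3 3.28-fold, Cox6a1 2.48-fold, Ndufb2 2.39-fold and Ndufa2 2.02-fold. Ndufa2 met the rule in just 5 types. Without cells of over 10% mitochondrial reads it no longer met the rule, while Ndufa1 and Cox7a1 did. In stem cells Atp5k was at 193 and 700.0 CPM, Ndufa3 at 141 and 431 and Cox6a1 at 689.5 and 1616. At the other end, Ndufv1 was 1.87-fold higher in replicate 1 by the median and Atp5f1 1.75-fold, each higher in all 9 types.

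Over all 80 members, the median ratio of replicate 2 to replicate 1 was 1.06-fold, and by complex it was 1.42-fold for complex IV and between 0.905-fold and 1.09-fold for the other complexes. Replicate 2 was higher in all 9 types for 24 members and replicate 1 for 13. The members higher in replicate 2 were on the whole shorter. Of the 77 members with a transcript listed first for the gene (GENCODE M21), the median length was 560.5 bases for the 22 higher in replicate 2 in all types and 1623 bases for the 13 higher in replicate 1. Over the 77 members, Spearman's rho between ratio and length was −0.66, a description across genes of the same 2 libraries. The mitochondrial share also differed between the mice (13.8% and 7.63% in enterocytes, 11.0% and 6.27% in stem cells), and with 1 library per mouse, animal and library cannot be told apart. The part of these in the ratios was not tested.

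**Figure D4:**
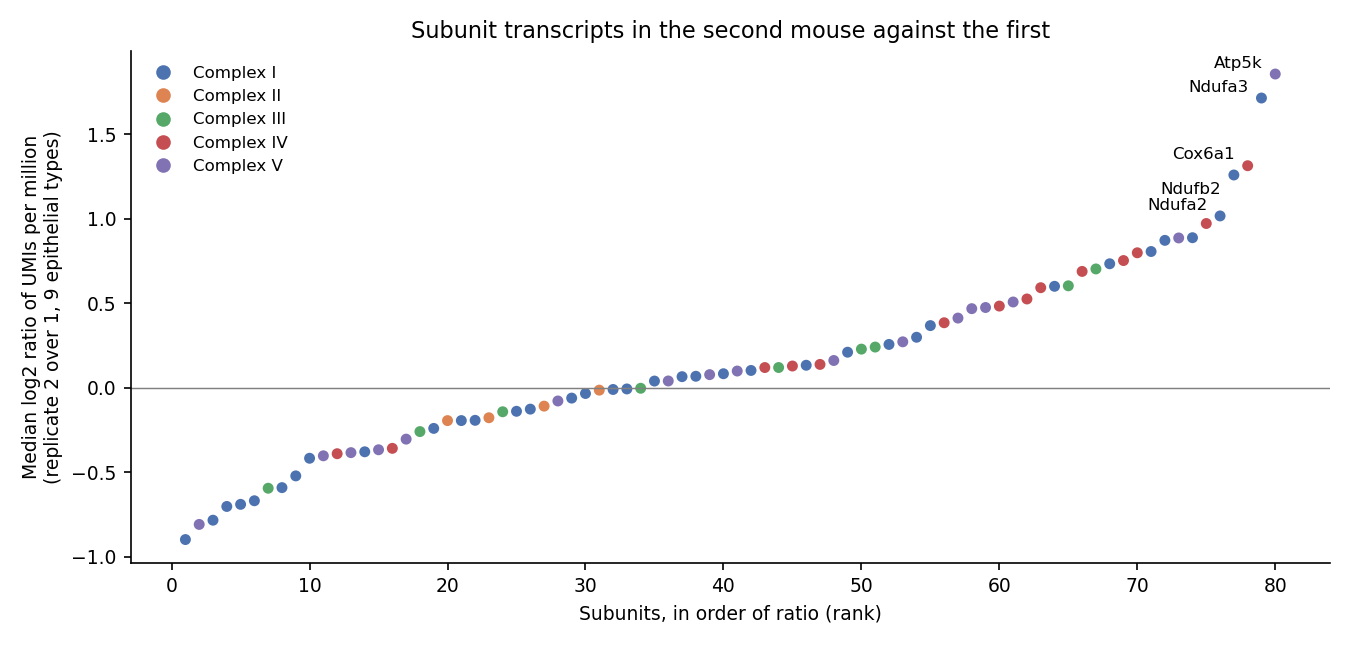
Median log2 ratio of CPM in replicate 2 over replicate 1 across the 9 epithelial types (vertical axis) for each of the 80 members in order of the ratio (horizontal axis), coloured by complex. Most points lie within 1 log2 unit of 0, and the 5 named members, led by Atp5k and Ndufa3, lie above it.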

How the data were processed

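Droplet single-cell RNA-seq libraries of jejunal crypt cells from 2 375KO mice were used. The authors aligned the reads and counted UMIs with Cell Ranger 3.0.1 (mm10), and the deposited matrices hold whole-number UMI counts per gene and barcode. Filtering, clustering and annotation were done by the authors with Seurat 3.2.1 per the labels, and the deposited annotation and mitochondrial percent columns were used as given. Columns of 2937 other cells in each deposited table belong to samples outside the 2 libraries and were not used. The authors' methods name an ambient RNA correction and a doublet caller. Whether the correction had been applied to these matrices is not given in the sources used here. They held 302472 and 176897 entries written as 0, and their UMI totals equalled the annotated totals in 1358 of 3275 cells, with a median difference of 1 UMI. The counts were used as they stand, with no further doublet removal.

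The members, comparisons and gene lists were chosen with earlier results of these data known. Cell types with at least 10 cells in a library were kept. Counts were summed per mouse and cell type, giving 18 sums of 9 epithelial types, and tested with edgeR 4.0.16 (R 4.3.3) by the quasi-likelihood test with TMM scaling, a term for the mouse and 8 residual degrees of freedom. Genes were kept by the default filter of edgeR, 11013 genes were tested in 8 comparisons, and p values were adjusted over all of them by Benjamini-Hochberg within a comparison, with 0.05 as the threshold. The cell types of a mouse come from 1 animal, which pairs the sums. Deviations from the type means of sums of the same mouse correlated by 0.119 to 0.662 (median 0.313) over 36 pairs of types. The separate mice are separate animals, and the p values rest on 2 of them.

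Named members were fixed as the paralogs of the Cox4, Cox6, Cox7, Cox8, Ndufa4 and Atp5g families, core subunits, the 4 largest called changes in each direction with the same sign in both mice, called members opposite to the median, members that differed between the mice, and those next to the UMI minimum, and for the lists the 2 largest and 2 smallest called changes. Members named because they missed the threshold, for the type where they were highest or for a changed sign, and Atp5f1, were chosen after their values were seen. Shares are given with exact binomial 95% intervals, which cover counting error only. Transcript and promoter sequences and positions were read from GENCODE M21 and RefSeq (GRCm38.p6), and 67 of 80 members matched a promoter. Members without a promoter entry included Cox4i1, Cox6c, Uqcrq, Atp5a1, Ndufb9, Uqcrb, Cyc1, Ndufa2, Uqcrc2, Sdhc, Ndufs1 and Cox6a2. The values of 1 member are not reported here. The tests were tried on simulated counts with known changes. Alternatives were DESeq2 1.42.0 (size factors and Wald test), library totals, no low-count filter, no mouse term, and leaving out mitochondrially encoded genes, Paneth cells, cells of over 10% mitochondrial reads or UMIs beyond 5000 per cell.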

Additional observations from a re-analysis of the deposited data

Results flagged for a closer look

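Barcodes that the authors' annotation does not cover lie outside every comparison above, and the members were detected there too. In replicate 1 the members held 2.24% of the UMIs of 5583 such barcodes, with a median of 1581 UMIs per barcode and 32.9% of UMIs from mitochondrial genes. In replicate 2 they held 1.92% of the UMIs of 58 such barcodes, with a median of 19374.5 UMIs and 2.18% from mitochondrial genes. No control samples were at hand to set these shares against.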

How the results depend on the processing

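The counts of called members depended most on the mouse term and the scaling. With the mouse term they were 1 (TA against stem cells), 70 (enterocytes), 27 (goblet), 63 (Paneth), 67 (EEC), 24 (tuft), 69 (enterocytes against TA cells) and 6 (goblet cells against goblet progenitors). Beside these counts, the shares of all genes are given with each comparison above. Without the mouse as a block, which pairs the sums, the counts were 0, 15, 2, 31, 9, 0, 6 and 0 in the same order. In that fit 0.554%, 16.7%, 11.5%, 11.5%, 9.03%, 6.09%, 14.6% and 4.5% of all genes were higher, in the same order. Lower were 0.0817%, 13.3%, 9.04%, 8.3%, 3.94%, 3.27%, 11.3% and 4.98% of all genes. With library totals only, enterocytes had 38, goblet 62, EEC 39, tuft 8, enterocytes against TA cells 5 and goblet cells against progenitors 43. In that order, 19.8%, 12.4%, 19.5%, 14.7%, 16.3% and 6.24% of all genes were higher there, and 30.7%, 31.8%, 6.15%, 5.92%, 37.5% and 33.4% lower. With no filter on low counts, goblet had 16, tuft 15, enterocytes against TA cells 34 and goblet cells against progenitors 1. In that order, 12.4%, 6.47%, 16.3% and 8.74% of all genes were higher there, and 11.4%, 6.77%, 16.7% and 9.27% lower. The DESeq2 Wald test gave 4 for TA cells, with 2.09% of all genes higher and 1.86% lower. Leaving out cells of over 10% mitochondrial reads gave 0 for TA cells (2.96% of all genes higher and 1.17% lower) and 3 for goblet cells against progenitors (14.1% and 13.3%). For goblet cells against progenitors, DESeq2 size factors (15.5% and 13.5%) and leaving out mitochondrially encoded genes (14.5% and 14.1%) also gave 3 each. In the other 56 of 79 settings the count stayed within 1.5 times. These include goblet cells against progenitors with cells thinned to 5000 UMIs, where the 3 rises were nonetheless lost (0 higher and 5 lower, 10.5% and 9.78% of all genes). They also include Paneth cells with thinned cells (0 higher and 60 lower, 4.9% and 8.8% of all genes) and with library totals only (0 and 79, 1.76% and 87.2%). In both of these Paneth settings the rise of Ndufa1 was lost. The fall of Cox6b2 in enterocytes against TA cells was lost without cells of over 10% mitochondrial reads. With cells thinned to 5000 UMIs its fall was called neither against stem cells nor against TA cells. The cause of these changes was not tested.

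Leaving out 1 mouse leaves no residual degrees of freedom, so it gave medians with no test. The lowest and highest median log2 fold changes were 0.02 and 0.11 for TA cells, 0.59 and 0.72 for enterocytes, −0.33 and −0.22 for goblet, −1.01 and −0.90 for Paneth, −0.92 and −0.68 for EEC, −0.34 and −0.34 for tuft, and 0.55 and 0.63 for enterocytes against TA cells. For goblet cells against progenitors the median was −0.10 in replicate 1 and 0.14 in replicate 2, so it reversed without replicate 1.

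With the 100 most abundant genes left out of the total, the mean share of UMIs was 8.77% in stem cells, 9.42% in TA cells, 10.8% in enterocytes, 8.11% in goblet progenitors, 6.69% in goblet cells, 7.59% in secretory progenitors, 4.13% in Paneth cells, 5.78% in EEC, 7.52% in tuft cells and 4.44% in IEL. Without mitochondrially encoded genes it was 5.30% in secretory progenitors and 4.06% in EEC. The EEC share was 3.70% without cells of over 10% mitochondrial reads and 3.42% with cells thinned to 5000 UMIs. At a 1.5-fold limit, 25 members differed between the mice. At the 2-fold limit without cells of over 10% mitochondrial reads, 6 differed, with Ndufa1 and Cox7a1 added and Ndufa2 lost. Leaving out members that share 32-base stretches with another place in the genome was not run, since no genome was used here. In its place, chosen after seeing the data, 6 members whose ends are shared with annotated transcripts of other genes were left out (Cox7c, Atp5l, Ndufs3, Ndufs5, Atp5h and Atp5g2), and all 8 counts stayed within 1.5 times. A fit without Paneth cells could not give the Paneth comparison. Depth limited Cox6a2, Cox6b2 and Atp5s most, and 18 to 54 cells per sum limited IEL, secretory progenitors, EEC and tuft cells.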

Other observations

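Within cell types, the members' share of a cell's UMIs, with mitochondrially encoded genes left out of the total, went with the mitochondrially encoded share in some types only. Over single cells, Spearman's rho was 0.44 in replicate 1 and 0.66 in replicate 2 for goblet cells, 0.43 and 0.72 for Paneth cells, and 0.61 and 0.58 for EEC. For enterocytes it was −0.21 and 0.01, and with mitochondrially encoded genes kept in the total it was −0.51 and −0.18. Against the UMIs of the cell, rho of the members' share was −0.54 and −0.48 in Paneth cells, −0.09 and 0.27 in goblet cells, and 0.21 and 0.31 in EEC. Abundant secretory transcripts stayed in the total, and their part in these values was not tested. Cells of a library share their depth and preparation and are not replicates, so these are descriptions with no test.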
